A study of Homo sapiens with 18 samples.

Results

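The genes described here encode the enzymes and complexes that copy DNA at the replication fork, together with the origin recognition complex and the histone chaperones that follow the fork. They were chosen by name from known function: 36 genes of the 20046 annotated on the array, matched to 57 of its 47323 probes through the platform annotation. They are the subunits of DNA polymerases alpha, delta and epsilon with primase, the sliding clamp and the enzymes of Okazaki fragment processing, the clamp loader RFC, the single-strand binding complex RPA, the GINS complex, the origin recognition complex ORC, and the chromatin assembly factors with the fork adaptor WDHD1. The samples were RNA of NCI-H2347 cells, a human lung cancer line long in culture, grown in medium with 5% fetal bovine serum. Starting 24 h after plating, the cells received 50 µM pioglitazone, a thiazolidinedione agonist of the nuclear receptor PPARγ, or the vehicle DMSO alone. Cells were collected at 12, 24 and 48 h. The groups were pioglitazone 12 h, pioglitazone 24 h, pioglitazone 48 h, vehicle 12 h, vehicle 24 h and vehicle 48 h, with 3 arrays each, 18 in all, and every group shared the line, the serum and the plating.

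As background, DNA synthesis begins at origins that ORC marks for loading of the MCM helicase. When an origin fires, CDC45 and GINS join MCM to form the active helicase. Polymerase alpha with primase lays down short primers, RFC loads the ring-shaped clamp PCNA onto them, and polymerase epsilon and polymerase delta extend the leading and lagging strands. RPA covers the exposed single strands, FEN1, DNA2 and LIG1 process and seal Okazaki fragments, and ASF1B and the CAF-1 subunits CHAF1A and CHAF1B place histones on the new DNA. Many of these genes are transcribed in a wave before and during S phase under E2F factors, whereas several ORC subunits are known to be made throughout the cell cycle.

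The values are log2 signals after background correction and quantile normalisation, each gene represented by its brightest detected probe. Detection meant a p-value under 0.01 on at least 3 arrays; 35 of the 36 genes had such a probe. The only probe of GINS1 was detected on 0 of 18 arrays, so GINS1 was not tested. Arrays detected 17040 to 18880 of the 47323 probes and 33 to 35 of the 35 members. Correlations between arrays of a group were 0.973 to 0.995 over the brightest probes of all genes tested. The arrays fell into a class of lower background (11 arrays, median signal of undetected probes 102 to 113) and a class of higher background (7 arrays, 138 to 153). The higher class held all 6 arrays of 24 h and the 48 h pioglitazone array of replicate 3, so comparisons within 12 h and within 24 h lay inside a single class. All 6 epithelial markers were detected on all 18 arrays, while 2 of 5 fibroblast, 1 of 5 leukocyte and 1 of 4 endothelial markers passed the detection filter. As a check of the treatment labels, the PPAR target PDK4 rose by 2.50, 2.85 and 3.08 on the log2 scale at 12, 24 and 48 h (limma adjusted p = 2.71e-06, 1.32e-07 and 1.03e-08). Nothing in the labels says that replicates were separate cultures, so each p-value reflects the scatter among these arrays alone, which may be technical.

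Most of the replication genes were lower under pioglitazone, and more of them and by more at 24 and 48 h than at 12 h. Their median log2 fold change, pioglitazone over vehicle, was -0.28 at 12 h, -0.55 at 24 h and -0.81 at 48 h, beside -0.004, -0.02 and 0.01 over the 11680 genes tested. At 12 h, 10 of 35 members fell at a limma adjusted p under 0.05, beside 4.48% of all genes tested. At 24 h, 23 of 35 fell, beside 12.8% of all genes. At 48 h, 24 of 35 fell, beside 15.4% of all genes. No member rose at any of these times (limma: 0 of 35 called higher and 0 at an unadjusted p under 0.05, beside 4.32%, 10.5% and 14.3% of all genes called higher at 12, 24 and 48 h). In bulk RNA, fewer cells in S phase and less of these transcripts per cell cannot be told apart.

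Of the 35, 10 fell at all 3 times: PRIM1, POLE2, POLE3, FEN1, RFC2, RPA2, GINS2, CHAF1A, CHAF1B and WDHD1. A further 12 fell at 24 and 48 h, namely POLA1, POLA2, POLE, LIG1, RFC3, RFC4, RFC5, RPA1, GINS3, GINS4, ORC1 and ASF1B. POLD1 and DNA2 passed the threshold at 48 h only, and POLD3 at 24 h only. The other 10 passed it at no time: PRIM2, POLD2, PCNA, RFC1, RPA3, ORC2, ORC3, ORC4, ORC5 and ORC6. ORC6 is counted here on its brighter probe. Its dimmer probe was lower at 24 and 48 h (limma adjusted p over all kept probes = 0.00417 and 2.36e-05). By array, all 3 pioglitazone signals lay below all 3 vehicle signals for 18 members at 12 h (17.4% of all genes). The count was 28 at 24 h (25.1%) and 27 at 48 h (19.1%), and 17 members did so at all 3 times. Shares of all genes were counted within each time only, so the 17 has no such share beside it. The same holds for the counts above of members called lower at several times. No member had all 3 pioglitazone signals above all 3 vehicle signals (15.6%, 20.1% and 18% of all genes at the 3 times).

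The count at 12 h was the least stable. It was 4 without pioglitazone replicate 1, vehicle replicate 2 or vehicle replicate 3, 5 without pioglitazone replicate 3 or vehicle replicate 1, and 6 without pioglitazone replicate 2. Scaling each array by the median of all its probes, in place of quantile normalisation, left 0, 14 and 7 members called lower at 12, 24 and 48 h (2, 23 and 15 at an unadjusted p under 0.05 in limma). Of all genes, 4, 336 and 213 were called lower under that scaling. The median of all genes itself stood at 0.11, -0.20 and 0.26 there, and that of the members at -0.15, -0.81 and -0.49.

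Gene by gene, the 12 h calls of POLE2, FEN1 and CHAF1A held without any 1 of the 6 arrays, and that of RFC2 was lost without vehicle replicate 1 or 3. The 12 h call of RPA2 was lost without vehicle replicate 2 or 3 or pioglitazone replicate 1 or 2, and that of GINS2 without vehicle replicate 1 or 2 or pioglitazone replicate 1 or 3. Those of POLE3, CHAF1B and WDHD1 were lost without any 1 array, and that of PRIM1 without any but vehicle replicate 1. Of the 24 h calls, RPA1 was lost without pioglitazone replicate 2. POLA2 was lost without vehicle replicate 1 or pioglitazone replicate 1 or 3, and POLD3 without vehicle replicate 1 or pioglitazone replicate 1 or 2. LIG1 was lost without vehicle replicate 1 or 3 or pioglitazone replicate 2 or 3, and RFC5 without vehicle replicate 1 or 3 or pioglitazone replicate 1 or 3. Of the 48 h calls, RPA1 was lost without vehicle replicate 1 or 2 or pioglitazone replicate 2, and ORC1 without vehicle replicate 3 or pioglitazone replicate 2. With the median scaling, POLA1, POLE2, FEN1, GINS2, GINS4, CHAF1A and ASF1B kept the 48 h call.

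**Figure D1:**
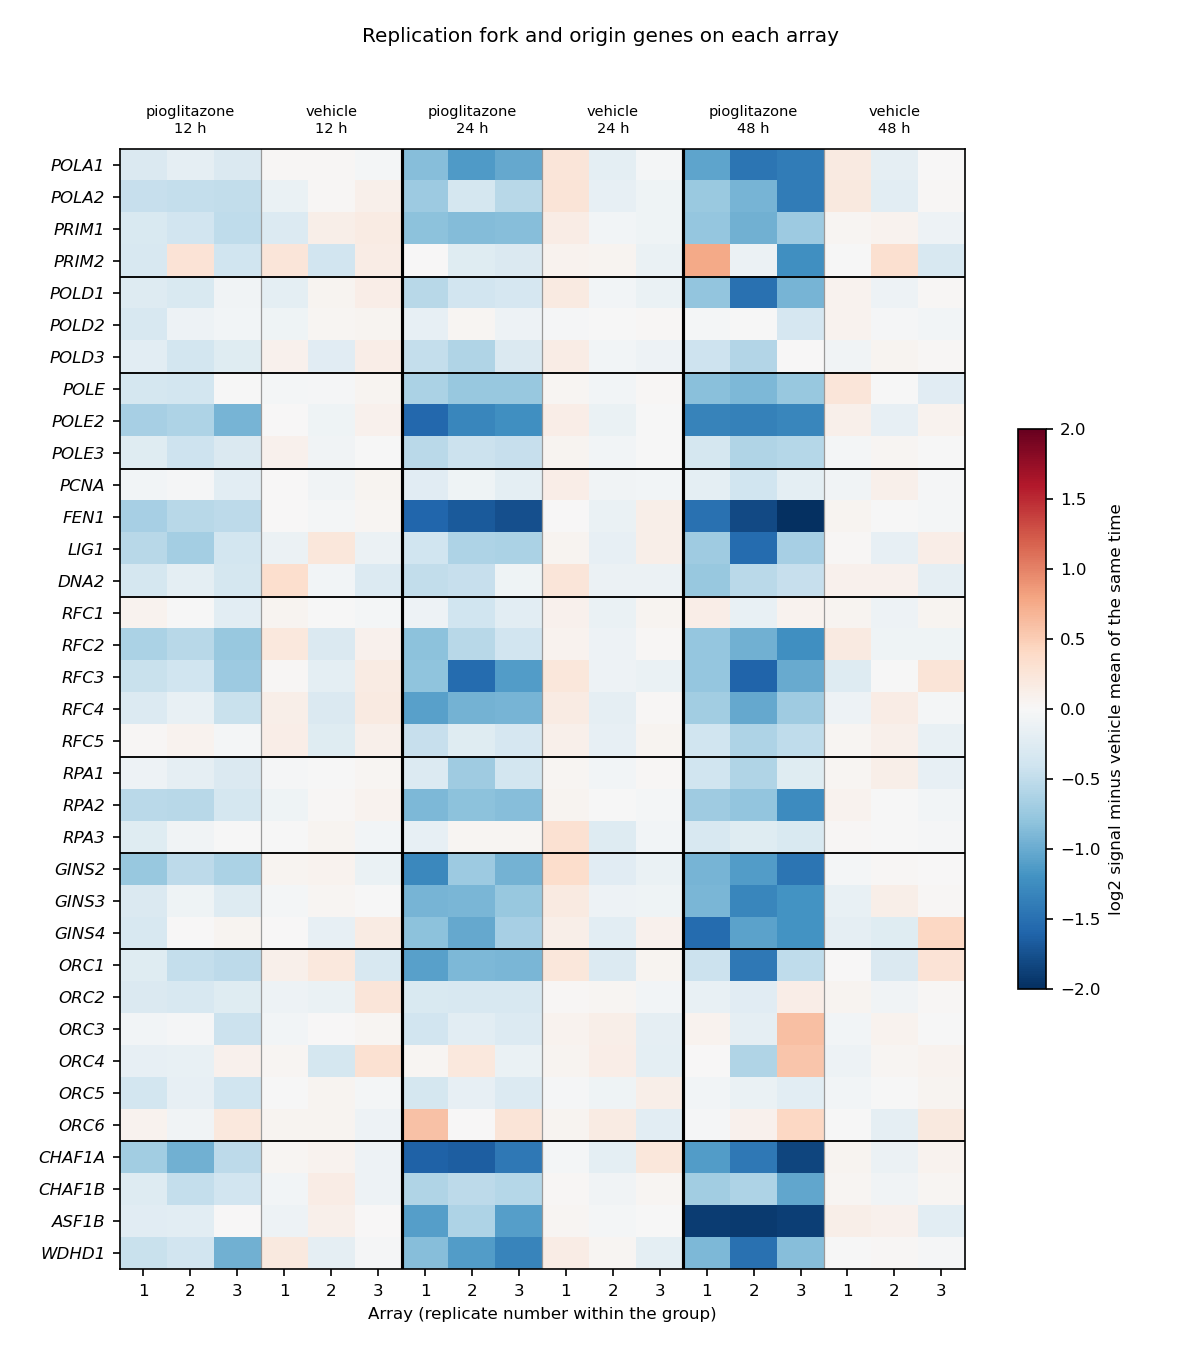
Log2 signal of each replication gene on each of the 18 arrays, shown as the difference from the mean of the 3 vehicle arrays of the same time; rows are the 35 genes grouped by complex, and pioglitazone columns stand left of vehicle columns at each time. The pioglitazone columns of 24 and 48 h are below vehicle in most rows, and the ORC rows other than ORC1 are near it, with ORC6 on its brighter probe. Values beyond the ends of the colour bar take its end colour.

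**Figure D2:**
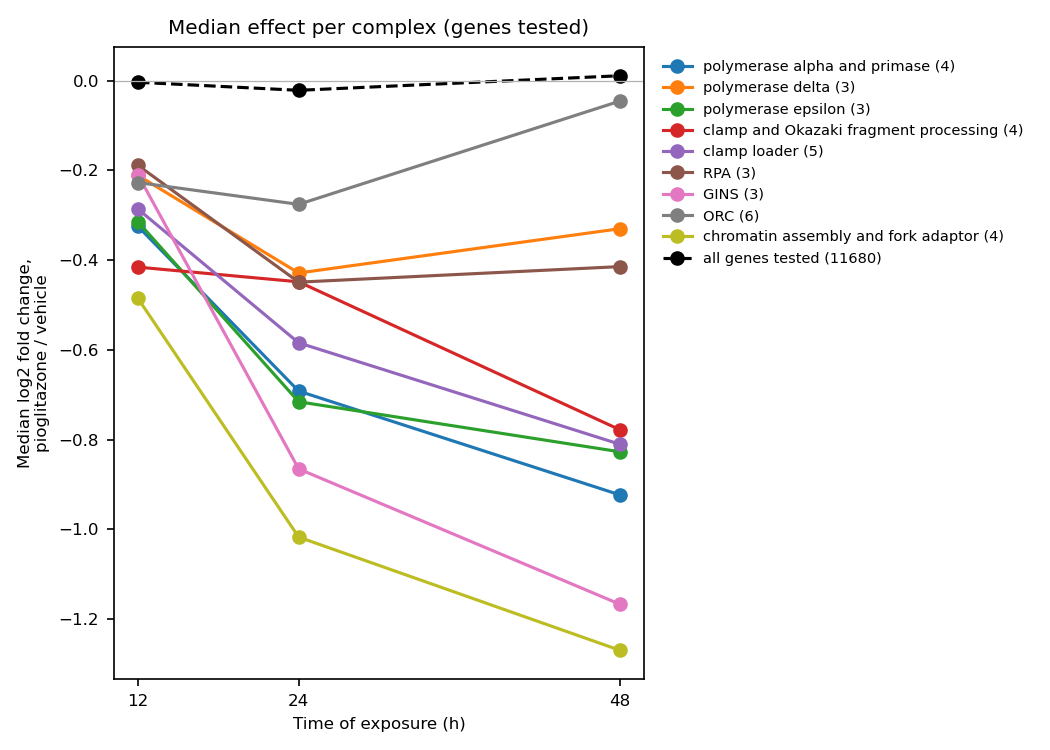
Median log2 fold change, pioglitazone over vehicle (y axis), of the tested genes of each complex at 12, 24 and 48 h (x axis), with the median of all 11680 genes as a dashed line; the number of genes is in the legend. At 48 h the medians run from -1.27 for chromatin assembly with WDHD1 to -0.05 for ORC, ORC taken with the brighter of 2 ORC6 probes.

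The proximal promoters of 6 of the genes show how their control regions read. POLE2, GINS2, GINS3 and RFC3 are shown because they fell and carry the letters of an E2F-type site. PCNA and ORC3 are shown because they carry such letters and passed the threshold at no time. Each stretch is the RefSeq reference (GRCh38.p14) from 140 bases before to 10 bases after the annotated transcript start, 5′ to 3′ on the gene's strand, with letters of an E2F-type site in capitals.
POLE2 (chr14:49688205-49688354, minus strand): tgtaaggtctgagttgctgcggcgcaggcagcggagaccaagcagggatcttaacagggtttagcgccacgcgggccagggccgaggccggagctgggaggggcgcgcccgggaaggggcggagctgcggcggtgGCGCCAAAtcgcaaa
GINS2 (chr16:85688945-85689094, minus strand): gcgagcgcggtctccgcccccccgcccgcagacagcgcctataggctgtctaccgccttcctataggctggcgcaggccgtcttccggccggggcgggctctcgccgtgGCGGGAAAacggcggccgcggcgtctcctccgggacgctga
GINS3 (chr16:58392331-58392480, plus strand): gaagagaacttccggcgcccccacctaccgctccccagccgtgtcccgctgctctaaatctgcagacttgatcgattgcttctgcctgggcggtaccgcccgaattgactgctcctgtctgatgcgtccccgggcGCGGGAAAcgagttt
RFC3 (chr13:33818009-33818158, plus strand): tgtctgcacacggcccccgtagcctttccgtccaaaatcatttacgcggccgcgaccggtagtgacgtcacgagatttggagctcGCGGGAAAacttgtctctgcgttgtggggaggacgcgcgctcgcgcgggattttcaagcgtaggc
PCNA (chr20:5126613-5126762, minus strand): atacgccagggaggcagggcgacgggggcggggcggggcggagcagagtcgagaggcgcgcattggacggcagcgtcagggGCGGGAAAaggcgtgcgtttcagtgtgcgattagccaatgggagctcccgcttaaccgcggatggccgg
ORC3 (chr6:87589995-87590144, plus strand): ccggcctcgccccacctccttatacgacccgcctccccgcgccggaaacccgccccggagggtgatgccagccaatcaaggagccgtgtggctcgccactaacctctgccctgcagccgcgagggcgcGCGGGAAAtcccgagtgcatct
E2F-type letters were defined as TTTCCCGC, TTTCGCGC, TTTGCCGC or TTTGGCGC on either strand, and were searched in windows of 300 bases, 250 before and 50 after the start. Promoter entries existed for 31 of the 36 genes, all but POLD3, DNA2, RPA2, RPA3 and GINS4. The letters were found for 11 of the 31: POLA1, POLA2, POLE, POLE2, PCNA, LIG1, RFC3, GINS1, GINS2, GINS3 and ORC3. Over all 35116 RefSeq windows the share was 3.31%, and over the 9405 tested genes with an entry it was 6.68%. Of the 21 members that fell at 48 h and had an entry, 8 held the letters, against 2 of the 9 members tested and not called. ASF1B, FEN1 and CHAF1A, the members of lowest 48 h change, held none. A gene with several windows was counted if any of them held the letters. For PCNA a further window, at another annotated start, held none. CCAAT, the letters of the NF-Y box, which can share an end base with the E2F-type letters, stood on either strand in 16 of 31 member windows, beside 34.6% of all windows and 43.5% of those of tested genes. The cell cycle element letters TTTGAA or TTCGAA were searched on both strands and are unable to overlap the E2F-type letters. They stood in a window of POLE3 and of ASF1B, beside 15.7% of the tested genes with an entry and 16.4% of all windows. A match describes the letters and is not evidence of a bound site.

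Polymerase alpha and primase, which start every new strand, had 1, 3 and 3 of 4 subunits called lower at 12, 24 and 48 h. POLA1, the catalytic subunit of polymerase alpha, was the lowest of the 4 at 48 h. POLA1 log2 signals at 12 h were 8.39, 8.50 and 8.39 on the pioglitazone arrays, against 8.70, 8.70 and 8.64 on the vehicle arrays. By 24 h POLA1 read 7.07, 6.79 and 6.90 under pioglitazone, against 8.17, 7.72 and 7.89 under vehicle. At 48 h POLA1 read 7.43, 7.02 and 7.09 under pioglitazone, against 8.66, 8.31 and 8.49 under vehicle. The POLA1 groups did not overlap at any time, and the gap between them was wider at 24 and 48 h than at 12 h. The log2 fold changes were -0.25, -1.01 and -1.31 (SE 0.13 each; limma adjusted p = 0.278, 4.64e-05 and 1.05e-06), so POLA1 at 48 h was 2.47-fold lower than in vehicle.

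POLA2, the regulatory subunit that tethers polymerase alpha, fell by 0.54 at 24 h and 1.02 at 48 h on the log2 scale, and its change at 12 h was -0.48 (limma adjusted p = 0.0730). PRIM1, the catalytic primase subunit, fell by 0.40, 0.84 and 0.82 at the 3 times. PRIM2, the large primase subunit, was at no time past the threshold. PRIM2 log2 signals at 12 h were 5.48, 6.08 and 5.40 under pioglitazone, against 6.04, 5.42 and 5.95 under vehicle. By 24 h PRIM2 read 4.70, 4.45 and 4.40 under pioglitazone, against 4.76, 4.75 and 4.56 under vehicle, with detection on none of these 6 arrays. At 48 h PRIM2 read 6.57, 5.69 and 4.58 under pioglitazone, against 5.80, 6.14 and 5.50 under vehicle. The groups overlapped at every time, and the 48 h pioglitazone array of higher background was as low as the 24 h arrays. The 48 h change was -0.20 with a 95% interval of -0.91 to 0.51, an interval that includes the 48 h value of PRIM1.

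Of polymerase delta, the main lagging strand polymerase, 0, 1 and 1 of the 3 members POLD1, POLD2 and POLD3 were called lower at 12, 24 and 48 h. POLD4, its smallest subunit, was taken from a list of further factors and was higher at 24 h by 0.54 (limma adjusted p = 0.0156). POLD1, the catalytic subunit, passed the threshold at 48 h only. POLD1 log2 signals at 12 h were 8.09, 8.05 and 8.28 under pioglitazone, against 8.15, 8.41 and 8.49 under vehicle. By 24 h POLD1 read 7.26, 7.44 and 7.48 under pioglitazone, against 8.00, 7.77 and 7.69 under vehicle. At 48 h POLD1 read 7.35, 6.65 and 7.20 under pioglitazone, against 8.21, 8.04 and 8.16 under vehicle. The POLD1 groups overlapped at 12 h, and all pioglitazone signals were below all vehicle signals at 24 and 48 h. The changes were -0.21, -0.43 and -1.07 (SE 0.15; limma adjusted p = 0.461, 0.0520 and 5.24e-05).

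POLD2, the core accessory subunit of polymerase delta, differed little between groups. POLD2 log2 signals at 12 h were 10.06, 10.28 and 10.33 under pioglitazone, against 10.30, 10.42 and 10.43 under vehicle. By 24 h POLD2 read 10.24, 10.44 and 10.29 under pioglitazone, against 10.38, 10.39 and 10.42 under vehicle. At 48 h POLD2 read 10.24, 10.27 and 9.94 under pioglitazone, against 10.35, 10.26 and 10.23 under vehicle. Its groups overlapped at every time, and the 48 h change was -0.13 (95% interval -0.35 to 0.10). The interval of POLD2 lay above that of POLD1, which was -1.39 to -0.75, but the difference between both genes was not itself tested. POLD3, an accessory subunit that binds PCNA, fell by 0.45 at 24 h (limma adjusted p = 0.0273), and its changes at 12 and 48 h were -0.27 and -0.33.

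Of polymerase epsilon, the leading strand polymerase, the 3 members POLE, POLE2 and POLE3 fell at 24 and 48 h, and POLE2 and POLE3 also at 12 h. POLE4, its smallest subunit and likewise one of the further factors, was higher at 24 h by 0.49 (limma adjusted p = 0.00433). POLE2, the second-largest subunit, had these log2 signals at 12 h: 8.28, 8.31 and 8.01 under pioglitazone, against 8.94, 8.84 and 9.03 under vehicle. By 24 h POLE2 read 7.29, 7.55 and 7.63 under pioglitazone, against 8.99, 8.72 and 8.85 under vehicle. At 48 h POLE2 read 7.72, 7.70 and 7.76 under pioglitazone, against 9.16, 8.89 and 9.12 under vehicle. No pioglitazone signal of POLE2 reached a vehicle signal of its time. POLE2 had the lowest log2 fold change of all members at 12 h, -0.74, followed by -1.36 and -1.33 at 24 and 48 h (SE 0.12; limma adjusted p = 0.000839, 8.53e-07 and 2.37e-07).

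POLE, the catalytic subunit of polymerase epsilon, passed the threshold at 24 and 48 h. POLE log2 signals at 12 h were 7.44, 7.42 and 7.77 under pioglitazone, against 7.74, 7.77 and 7.84 under vehicle. By 24 h POLE read 6.94, 6.81 and 6.82 under pioglitazone, against 7.60, 7.52 and 7.60 under vehicle. At 48 h POLE read 6.68, 6.61 and 6.75 under pioglitazone, against 7.75, 7.50 and 7.28 under vehicle. The POLE groups overlapped at 12 h and were separate at 24 and 48 h, with changes of -0.24, -0.72 and -0.83 (limma adjusted p = 0.242, 0.000382 and 5.31e-05).

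POLE3, a small histone-fold subunit, had the smallest 48 h change of these 3. POLE3 log2 signals at 12 h were 11.74, 11.56 and 11.70 under pioglitazone, against 12.06, 11.90 and 11.97 under vehicle. By 24 h POLE3 read 11.14, 11.26 and 11.23 under pioglitazone, against 11.74, 11.63 and 11.68 under vehicle. At 48 h POLE3 read 11.54, 11.30 and 11.32 under pioglitazone, against 11.84, 11.94 and 11.89 under vehicle. The signals were tight within each group and did not overlap at any time. POLE3 fell by 0.31, 0.47 and 0.50 (SE 0.09; limma adjusted p = 0.0469, 0.00175 and 0.000655).

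Among the clamp and the enzymes that finish Okazaki fragments, FEN1 and PCNA stood at opposite ends. FEN1 is the endonuclease that cuts displaced flaps. FEN1 log2 signals at 12 h were 11.12, 11.22 and 11.27 under pioglitazone, against 11.79, 11.74 and 11.82 under vehicle. By 24 h FEN1 read 9.38, 9.28 and 9.20 under pioglitazone, against 10.97, 10.83 and 11.08 under vehicle. At 48 h FEN1 read 10.15, 9.84 and 9.47 under pioglitazone, against 11.70, 11.65 and 11.61 under vehicle. FEN1 was lower on every pioglitazone array than on any vehicle array of its time, and the gap at 24 and 48 h was over a log2 unit. The changes were -0.58, -1.67 and -1.83 (SE 0.13; limma adjusted p = 0.00958, 2.74e-07 and 1.85e-08), which is 3.55-fold lower at 48 h. The other FEN1 probe gave -0.83, -1.54 and -1.49.

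PCNA, the clamp that FEN1 and LIG1 bind, passed the threshold at no time. PCNA log2 signals at 12 h were 11.06, 11.09 and 10.91 under pioglitazone, against 11.12, 11.05 and 11.18 under vehicle. By 24 h PCNA read 10.37, 10.50 and 10.39 under pioglitazone, against 10.72, 10.53 and 10.54 under vehicle. At 48 h PCNA read 10.47, 10.27 and 10.47 under pioglitazone, against 10.60, 10.76 and 10.64 under vehicle. The PCNA groups overlapped at 12 h and were separate by a small gap at 24 and 48 h. Its changes were -0.10, -0.17 and -0.27 (limma adjusted p = 0.618, 0.222 and 0.0502), with a 95% interval at 48 h of -0.47 to -0.06. The second PCNA probe gave -0.42, -0.40 and -0.35. LIG1, the ligase that seals the nicks, fell by 0.55 and 0.97 at 24 and 48 h, and its 12 h change was -0.53 (limma adjusted p = 0.0867). DNA2, a nuclease and helicase that shortens long flaps, fell by 0.58 at 48 h, with -0.30 and -0.34 before that. At 48 h DNA2 was detected on 2 of 3 pioglitazone arrays.

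**Figure D3:**
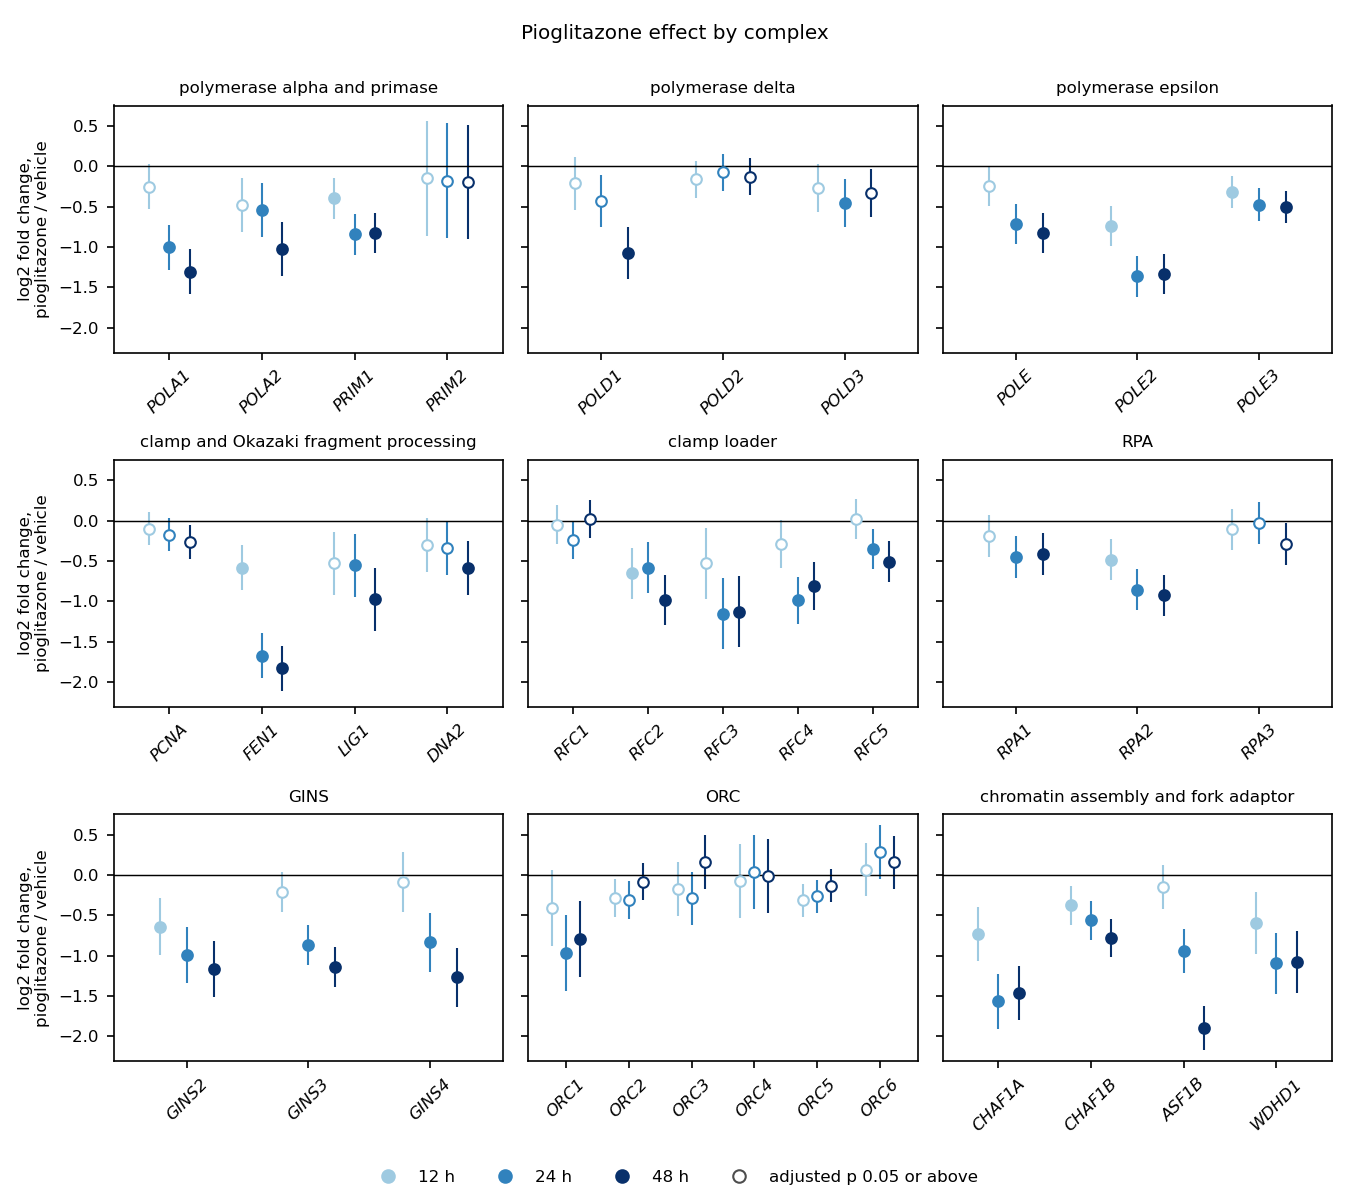
Log2 fold change, pioglitazone over vehicle, of each of the 35 replication genes at 12, 24 and 48 h, grouped by complex; bars are 95% intervals and filled points passed the limma adjusted p of 0.05. In several groups a gene with a small 48 h change stands beside one far lower: POLD2 beside POLD1, PCNA beside FEN1 and RFC1 beside RFC3. The 48 h interval of PCNA lay below 0.

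The clamp loader RFC opens the PCNA ring and sets it on primed DNA; 1, 4 and 4 of its 5 subunits were called lower at 12, 24 and 48 h. RFC3, a small subunit, was the lowest at 48 h. RFC3 log2 signals at 12 h were 7.62, 7.66 and 7.34 under pioglitazone, against 8.10, 7.87 and 8.23 under vehicle. By 24 h RFC3 read 6.32, 5.58 and 6.00 under pioglitazone, against 7.35, 7.02 and 6.99 under vehicle. At 48 h RFC3 read 6.78, 5.95 and 6.54 under pioglitazone, against 7.30, 7.55 and 7.80 under vehicle. The RFC3 groups did not overlap at any of the 3 times. Its changes were -0.53, -1.16 and -1.13 (SE 0.21; limma adjusted p = 0.135, 0.000746 and 0.000587). A second RFC3 probe gave -0.49, -1.09 and -1.04, and the remaining probe, annotated to another transcript and detected on 4 of 18 arrays, had measured changes of 0.51, -0.50 and -0.53 with detection on none of the pioglitazone arrays at 24 and 48 h.

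RFC1, the large subunit that binds DNA and PCNA, was at no time past the threshold. RFC1 log2 signals at 12 h were 9.62, 9.53 and 9.33 under pioglitazone, against 9.59, 9.53 and 9.51 under vehicle. By 24 h RFC1 read 9.29, 8.99 and 9.19 under pioglitazone, against 9.48, 9.25 and 9.45 under vehicle. At 48 h RFC1 read 9.55, 9.26 and 9.49 under pioglitazone, against 9.46, 9.31 and 9.47 under vehicle. The RFC1 groups overlapped at all 3 times, and the 48 h change was 0.02 (95% interval -0.22 to 0.26). Of the other small subunits, RFC2 fell by 0.65, 0.58 and 0.98 at the 3 times. RFC4 fell by 0.99 and 0.81, and RFC5 by 0.35 and 0.51, at 24 and 48 h. At 12 h the changes of RFC4 and RFC5 were -0.29 and 0.02.

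Of the RPA complex, 1, 2 and 2 of 3 subunits were called lower at 12, 24 and 48 h. RPA2, the middle subunit that is phosphorylated under replication stress, led. RPA2 log2 signals at 12 h were 10.20, 10.17 and 10.38 under pioglitazone, against 10.64, 10.75 and 10.81 under vehicle. By 24 h RPA2 read 9.38, 9.47 and 9.43 under pioglitazone, against 10.34, 10.27 and 10.24 under vehicle. At 48 h RPA2 read 10.24, 10.16 and 9.70 under pioglitazone, against 11.02, 10.95 and 10.90 under vehicle. The RPA2 groups were separate at all 3 times. RPA2 fell by 0.48, 0.85 and 0.92 (SE 0.12; limma adjusted p = 0.0167, 8.23e-05 and 1.78e-05).

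RPA3, the smallest subunit of that complex, differed by less. RPA3 log2 signals at 12 h were 11.33, 11.52 and 11.57 under pioglitazone, against 11.58, 11.63 and 11.54 under vehicle. By 24 h RPA3 read 11.08, 11.29 and 11.28 under pioglitazone, against 11.55, 10.98 and 11.19 under vehicle. At 48 h RPA3 read 10.76, 10.83 and 10.77 under pioglitazone, against 11.10, 11.06 and 11.05 under vehicle. The RPA3 groups overlapped at 12 and 24 h and were separate at 48 h, when its change was -0.29 (limma adjusted p = 0.0849, 95% interval -0.54 to -0.03). RPA1, the large subunit that holds most of the DNA-binding surface, fell by 0.45 and 0.41 at 24 and 48 h, after -0.19 at 12 h. The other detected RPA1 probes were not called at either time: one gave -0.29 and -0.21 (limma adjusted p over all kept probes = 0.0934 and 0.207), and the other -0.21 and -0.31 (0.216 and 0.0577).

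GINS, the part of the active helicase that links MCM to the leading strand polymerase, had 1, 3 and 3 of its 3 tested subunits called lower at 12, 24 and 48 h. GINS4 log2 signals at 12 h were 6.75, 7.07 and 7.11 under pioglitazone, against 7.07, 6.90 and 7.22 under vehicle. By 24 h GINS4 read 5.48, 5.27 and 5.63 under pioglitazone, against 6.42, 6.09 and 6.37 under vehicle. At 48 h GINS4 read 5.03, 5.49 and 5.38 under pioglitazone, with detection on 2 of these 3 arrays, against 6.39, 6.33 and 6.98 under vehicle. The GINS4 groups overlapped at 12 h and were separate at 24 and 48 h, with changes of -0.09, -0.83 and -1.27 (limma adjusted p = 0.832, 0.00244 and 3.47e-05).

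GINS3 followed a similar course from 24 h on. GINS3 log2 signals at 12 h were 7.95, 8.16 and 7.98 under pioglitazone, against 8.20, 8.28 and 8.23 under vehicle. By 24 h GINS3 read 6.53, 6.55 and 6.70 under pioglitazone, against 7.63, 7.37 and 7.38 under vehicle. At 48 h GINS3 read 6.84, 6.45 and 6.57 under pioglitazone, against 7.62, 7.88 and 7.78 under vehicle. The GINS3 groups were separate at all 3 times, although the 12 h change of -0.21 missed the threshold (limma adjusted p = 0.307). At 24 and 48 h GINS3 fell by 0.87 and 1.14 (limma adjusted p = 5.66e-05 and 1.17e-06). GINS2, the subunit also known as PSF2, fell by 0.64, 0.99 and 1.17 and was the member of the complex called at 12 h. Its promoter and that of GINS3 are among those printed above.

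**Figure D4:**
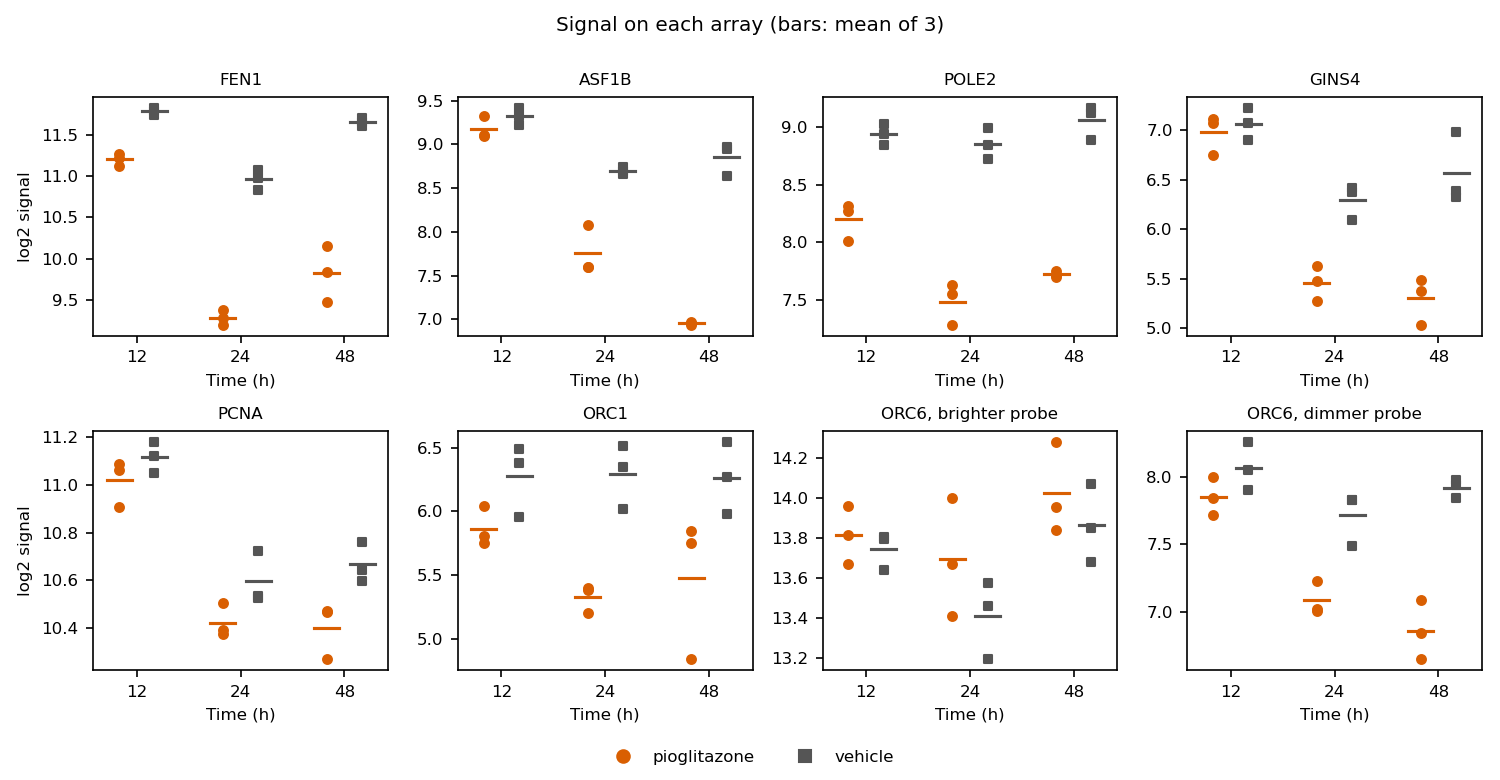
Log2 signal on each array of selected replication genes at 12, 24 and 48 h, pioglitazone left of vehicle at each time; points are arrays and bars are means of 3, and each panel has its own y axis. FEN1, ASF1B, POLE2, GINS4 and ORC1 separate from vehicle at 24 and 48 h, PCNA does so by a small gap, and the brighter ORC6 probe overlaps at all times while the dimmer one separates at 24 and 48 h.

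ORC, which marks origins, had 0, 1 and 1 of 6 subunits called lower at 12, 24 and 48 h with the brightest probe of each gene, and 2 of 6 at 24 and 48 h with the mean of all detected probes or with the other ORC6 probe. The subunit called on the brightest probe was ORC1, the subunit whose amount cycles in human cells. ORC1 log2 signals at 12 h were 6.04, 5.80 and 5.75 under pioglitazone, against 6.38, 6.49 and 5.95 under vehicle. By 24 h ORC1 read 5.21, 5.40 and 5.38 under pioglitazone, against 6.52, 6.02 and 6.35 under vehicle. At 48 h ORC1 read 5.84, 4.84 and 5.75 under pioglitazone, with detection on 2 of these 3 arrays, against 6.27, 5.98 and 6.54 under vehicle. The ORC1 groups overlapped at 12 h and were separate at 24 and 48 h, with changes of -0.41, -0.97 and -0.79 (SE 0.22; limma adjusted p = 0.297, 0.00490 and 0.0129).

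ORC3, a core subunit, had with ORC6 the highest 48 h change of the complex. ORC3 log2 signals at 12 h were 8.71, 8.75 and 8.34 under pioglitazone, against 8.72, 8.79 and 8.81 under vehicle. By 24 h ORC3 read 8.86, 9.03 and 8.98 under pioglitazone, against 9.31, 9.37 and 9.07 under vehicle. At 48 h ORC3 read 8.87, 8.62 and 9.40 under pioglitazone, against 8.74, 8.87 and 8.79 under vehicle. The ORC3 groups overlapped at 12 and 48 h and were separate at 24 h, with no call at any of them. At 48 h the highest ORC3 signal was that of the pioglitazone array of higher background, and without that array the change was -0.06 in place of 0.16. The other core subunits ORC2, ORC4 and ORC5 had 48 h changes of -0.08 (95% interval -0.32 to 0.15), -0.01 (-0.47 to 0.45) and -0.13 (-0.34 to 0.07). The ORC5 signals of pioglitazone lay below those of vehicle at all 3 times, with no call at any of them.

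ORC6, the smallest subunit, gave conflicting values on its 2 probes. The brighter ORC6 probe, with a mean log2 signal of 13.8, gave 0.07, 0.28 and 0.16 at the 3 times and passed the threshold at none. The dimmer ORC6 probe read 7.08, 6.84 and 6.65 under pioglitazone at 48 h, against 7.84, 7.98 and 7.94 under vehicle. On that probe the groups did not overlap at 48 h, with changes of -0.22, -0.63 and -1.06 (limma adjusted p over all kept probes = 0.434, 0.00417 and 2.36e-05). Both ORC6 probes are annotated to the same transcript, and the direction of ORC6 is therefore uncertain here.

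Of the chromatin assembly factors, CHAF1A and CHAF1B were called lower at 12, 24 and 48 h and ASF1B at 24 and 48 h, and the fork adaptor WDHD1 was called lower at all 3 times. ASF1B, a histone chaperone that hands histones to CAF-1, had the lowest 48 h change of all members. ASF1B log2 signals at 12 h were 9.09, 9.11 and 9.32 under pioglitazone, against 9.22, 9.42 and 9.32 under vehicle. By 24 h ASF1B read 7.60, 8.08 and 7.60 under pioglitazone, against 8.74, 8.66 and 8.70 under vehicle. At 48 h ASF1B read 6.96, 6.94 and 6.97 under pioglitazone, against 8.97, 8.94 and 8.64 under vehicle. The ASF1B groups overlapped at 12 h, were separate at 24 h and lay furthest apart at 48 h. Its changes were -0.15, -0.94 and -1.90 (SE 0.13; limma adjusted p = 0.559, 6.34e-05 and 8.58e-09), which is 3.72-fold lower at 48 h.

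CHAF1B, the middle subunit of CAF-1, fell by smaller steps. CHAF1B log2 signals at 12 h were 8.02, 7.81 and 7.90 under pioglitazone, against 8.23, 8.44 and 8.18 under vehicle. By 24 h CHAF1B read 6.65, 6.73 and 6.69 under pioglitazone, against 7.27, 7.19 and 7.30 under vehicle. At 48 h CHAF1B read 7.28, 7.36 and 6.93 under pioglitazone, against 8.01, 7.90 and 8.01 under vehicle. The CHAF1B groups were separate at all 3 times, with changes of -0.37, -0.56 and -0.78 (limma adjusted p = 0.0482, 0.00185 and 5.67e-05). CHAF1A, the large CAF-1 subunit that binds PCNA, fell by 0.73 and 1.46 at 12 and 48 h. At 24 h it was not detected on any of the 3 pioglitazone arrays and on 3 of 3 vehicle arrays, so its level there is a bound: at least 2.17-fold lower, taken against the lowest signal among detected probes of each array (limma adjusted p = 4.32e-06). The measured mean log2 signals behind that bound were 4.79 under pioglitazone and 6.35 under vehicle. WDHD1, which couples polymerase alpha to the helicase, fell by 0.60, 1.10 and 1.08. Its dimmer probe gave -0.34 at 12 h and was detected on none of the pioglitazone arrays at 24 or 48 h, so no change is given for it there.

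By complex, the median log2 fold change at 48 h was -1.27 for chromatin assembly with WDHD1, -1.17 for GINS and -0.92 for polymerase alpha with primase. Polymerase epsilon had a median of -0.83, the clamp loader -0.81, and the clamp with Okazaki fragment processing -0.78. The smallest shifts were those of RPA at -0.41, polymerase delta at -0.33 and ORC at -0.05; with the mean of all detected probes ORC stood at -0.08, and with the other ORC6 probe, an alternative chosen after seeing the data, at -0.11. The order was not the same at 12 h. ORC then stood at -0.23, beside -0.21 for GINS, -0.21 for polymerase delta and -0.19 for RPA. The remaining complexes were lower at 12 h, from -0.29 for the clamp loader to -0.49 for chromatin assembly with WDHD1. At 24 h ORC again had the smallest shift, at -0.28. These medians rest on 3 to 6 genes each and differences between complexes were not tested. With the median scaling the 48 h medians were -0.90 for chromatin assembly with WDHD1, -0.87 for GINS and -0.65 for polymerase alpha with primase. The clamp loader stood at -0.56, polymerase epsilon at -0.49 and the clamp with Okazaki fragment processing at -0.42. RPA stood at -0.14, polymerase delta at -0.02 and ORC at 0.22, beside 0.26 for all genes. Averaged over the genes of a complex after quantile normalisation, GINS stood at -1.13, -1.17 and -1.28 from the vehicle mean on the 3 pioglitazone arrays of 48 h. Polymerase epsilon stood at -0.84, -0.95 and -0.88. Not every complex was as even as these: polymerase alpha with primase stood at -0.46, -0.87 and -1.19, and ORC at -0.10, -0.41 and 0.16. The last value of each is that of the array of higher background.

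Whether the pioglitazone effect differed between times was tested as a difference of effects in the same model. From 12 to 24 h, FEN1 was the member whose effect became lower, with a difference of -1.09 (limma adjusted p = 0.00922; 1 of 35 members, beside 0.342% of all genes). The number called there was 5 in a fit of only the groups compared, 6 with background class as a block and 11 with array weights. These alternative counts have no share of all genes beside them, since 0.342% belongs to the main fit. The largest array weight was 6.15, for pioglitazone 24 h replicate 3, and the next was 2.06, for pioglitazone 12 h replicate 1. The class block rests on 1 array, the 48 h pioglitazone array of higher background. From 24 to 48 h, ASF1B was the member whose effect became lower, with a difference of -0.96 (limma adjusted p = 0.00600; 1 of 35, beside 2.16% of all genes). From 12 to 48 h, 8 of 35 became lower, beside 5.22% of all genes. They were ASF1B (-1.75), FEN1 (-1.25), GINS4 (-1.18), POLA1 (-1.05), GINS3 (-0.93), POLD1 (-0.86), POLE2 (-0.60) and POLE (-0.59). No effect of a member became higher in any of these tests (limma: 0 of 35 called, and 0 at an unadjusted p under 0.05; beside 0.351%, 1.25% and 3.88% of all genes). The difference of POLD1 lost its call without vehicle 12 h replicate 1, and those of POLE and POLE2 lost theirs in 7 and 6 of the 12 fits that left out 1 array. With the median scaling no difference between times was called for a member (limma: 0 of 35, with 13, 0 and 4 lower at an unadjusted p under 0.05). For PCNA, RFC1 and ORC3 the effect at 48 h minus that at 12 h was -0.17, 0.07 and 0.34, with 95% intervals of -0.46 to 0.12, -0.27 to 0.41 and -0.14 to 0.81.

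The cells under vehicle also moved with time. Compared with vehicle at 12 h, vehicle at 48 h had 8 of 35 members lower, beside 13.6% of all genes: PCNA, LIG1, RFC4, RPA3, GINS2, GINS3, GINS4 and ASF1B. ORC5 was the 1 member that was higher, by 0.31, beside 12% of all genes. The median of the members in that comparison was -0.20, and the lowest change was that of GINS2, -0.78. With the median scaling 1 member was lower and 0 higher (limma, 0 higher at an unadjusted p under 0.05), beside 331 and 42 of all genes. ORC5 thus lost its call there. With array weights 15 members were lower, a count with no share of all genes beside it. Vehicle at 24 h against vehicle at 12 h had 21 members lower and 2, ORC2 and ORC3, higher, beside 16.5% and 20.1% of all genes. The 24 h arrays were all of the higher background class and the 12 h arrays all of the lower, so that time and background class cannot be told apart there. The 21 became 3 both with background class as a block and with the median scaling. Under the median scaling the median of the members was 0.0915 in place of -0.45. Class differed within a group only at pioglitazone 48 h, so the class block rests on 1 array, replicate 3 of that group. The median scaling had 3 members higher, and 152 of all genes lower and 3695 higher, while the class block had 0 members higher (limma; 0 at an unadjusted p under 0.05).

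Under pioglitazone, 24 of 35 members were lower at 48 h than at 12 h, beside 19.2% of all genes, and ORC5 was higher, beside 18.7%. Under the median scaling 14 were lower and 0 higher (limma, 0 higher at an unadjusted p under 0.05), beside 785 and 266 of all genes. The call of ORC5 was thus lost. The median of the members over that interval was -0.69. ASF1B fell by 2.22 and GINS4 by 1.68 between these times under pioglitazone; under vehicle the values were -0.47 and -0.50. On its brighter probe PCNA fell by 0.62 under pioglitazone and by 0.45 under vehicle. So on that probe both groups dropped over time, and the drop under pioglitazone differed from that under vehicle by -0.17 (limma adjusted p = 0.516). On the second PCNA probe the effect was -0.42 at 12 h and -0.35 at 48 h, a difference of the other sign. That probe read 6.85, 6.64 and 6.70 under vehicle at 12 h, and 6.65, 6.43 and 6.64 at 48 h. Under pioglitazone it read 6.22, 6.31 and 6.41 at 12 h, and 6.90, 6.07 and 5.69 at 48 h.

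Further detected probes existed for 13 of the 35 genes, 15 probes in all. These had the sign of the gene's brightest probe in 12 of 15 cases at 12 h, 13 at 24 h and 13 at 48 h. The log2 fold changes were within 0.5 of each other for 14, 13 and 13 of the 15 probes. The exceptions were the rarely detected RFC3 probe at all 3 times and the dimmer ORC6 probe at 24 and 48 h. These counts use measured signals, also where a probe was not detected, as with the further WDHD1 and RFC3 probes on the pioglitazone arrays of 24 and 48 h.

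**Figure D5:**
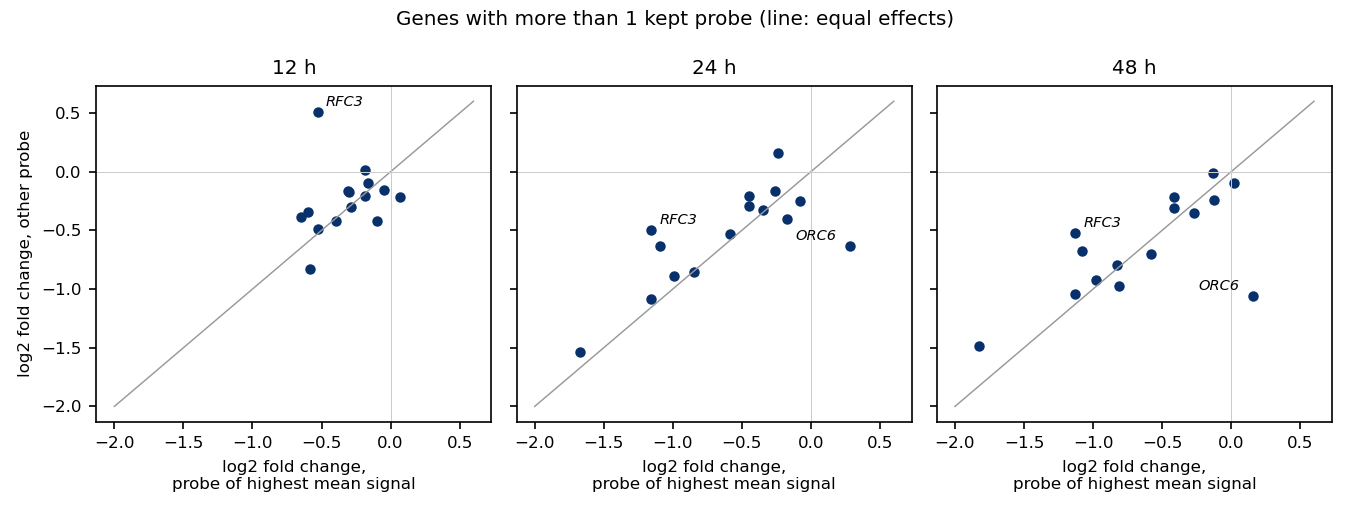
Log2 fold change of each further probe of a replication gene (y axis) against that of the gene's brightest probe (x axis) at 12, 24 and 48 h, with the line of equality. Most of the 15 probes lie near the line, and the ORC6 probe lies below it at 24 and 48 h.

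Other genes of the fork and origin machinery were taken from a list of 34 further factors, of which 30 were tested; it holds the MCM helicase, its loaders and activators, and the remaining polymerase subunits. Of the 30, 8 were lower at 12 h, 20 lower and 2 higher at 24 h, and 20 lower and 1 higher at 48 h. Of all genes tested, 4.48%, 12.8% and 15.4% were lower at 12, 24 and 48 h. The shares higher were 10.5% at 24 h and 14.3% at 48 h. The medians of the 30 were -0.36, -0.73 and -0.69. The largest falls at 48 h were those of CDT1, which loads MCM at origins, by 1.91, CDC45, the helicase cofactor, by 1.76, and MCM10, a firing factor, by 1.45. The 2 higher at 24 h were POLD4 and POLE4, described with their polymerases, whose changes at 48 h were 0.35 and 0.29 (limma adjusted p = 0.0871 and 0.0563). CHRAC1, the histone-fold partner of POLE3 in a chromatin remodeller, was higher at 48 h by 0.38. With the median scaling 0, 13 and 5 of the 30 were lower and 0 higher at 12, 24 and 48 h, with CDT1, CDC45 and MCM10 among the 5. Of all genes, 4, 336 and 213 were lower and 19, 112 and 341 higher under that scaling.

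As a contrast, 6 polymerase and ligase genes of mitochondrial replication and repair were listed, and 4 were tested. POLG, the mitochondrial polymerase, was higher under pioglitazone by 0.52, 0.32 and 0.34 at 12, 24 and 48 h (limma adjusted p = 0.00155, 0.0169 and 0.00819). LIG3, the mitochondrial and repair ligase, fell by 0.66 at 48 h, and POLH, a translesion polymerase, by 0.46. POLB, the base excision repair polymerase, had changes of 0.16, 0.12 and -0.05 and no call. The direction of POLG was opposite to that of the 24 fork genes called at 48 h. With the median scaling POLG stood at 0.67, 0.07 and 0.64 at the 3 times and passed the threshold at none (limma adjusted p = 0.689, 0.928 and 0.189). The 48 h calls of LIG3 and POLH were lost under it as well, at -0.34 and -0.16 (limma adjusted p = 0.445 and 0.729).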

How the data were processed

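Expression was measured on 18 Illumina HumanHT-12 v4 arrays. The authors deposited a linear signal intensity per probe, not normalised between arrays, and beside it a detection p-value; they were exported from GenomeStudio, per the submitters' processing notes, with a version not given in the sources used here. The authors also deposited processed intensities of the same arrays, used only as an alternative.

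Intensities were background-corrected by neqc (offset 16), which inferred its negative controls from the detection p-values, quantile-normalised and taken to log2 in limma 3.58.1 (R 4.3.3). Of 47323 probes, 20032 had a detection p-value under 0.01 on at least 3 arrays. The brightest kept probe, by mean log2 signal, stood for each of 11680 genes. Group means were fitted over all 18 arrays (12 residual degrees of freedom) and contrasts tested with moderated statistics, two-sided, with Benjamini-Hochberg adjustment over all genes and a threshold of 0.05. Precision is limited by the 3 arrays per group; a member's 48 h change had a median SE of 0.13. The procedure was tested on simulated data.

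Values on every array are given for the member of lowest and of highest 48 h change in each complex and for members whose effect differed between 12 and 48 h; all members are named. The members and lists were chosen with earlier results of these data known.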

Additional observations from a re-analysis of the deposited data

Results flagged for a closer look

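For 8 members the difference between pioglitazone and vehicle was not the same at every time, by a test of the difference between the effects at 2 times in limma. In all of them the later effect was the lower. FEN1 had an effect at 24 h lower than that at 12 h by 1.09 on the log2 scale (difference -1.09, adjusted p = 0.00922). ASF1B had an effect at 48 h lower than that at 24 h, with a difference of -0.96 (limma adjusted p = 0.00600).

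Between 12 and 48 h the differences in limma were -1.05 for POLA1 (adjusted p = 0.00162), -0.86 for POLD1 (0.0185), -0.59 for POLE (0.0362) and -0.60 for POLE2 (0.0337). They were -1.25 for FEN1 (0.000296), -0.93 for GINS3 (0.00159), -1.18 for GINS4 (0.00570) and -1.75 for ASF1B (6.14e-06). Of these, the differences of POLE and POLE2 were the least stable, kept in 12 and 17 of 25 alternatives.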

How the results depend on the processing

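Counts of members called lower are given, in limma. Counts of all genes stand beside them for the median scaling only, so the other alternative counts have no share of all genes to be read against. Median scaling over all probes moved every count: to 0, 14 and 7 at 12, 24 and 48 h, to 0 for each of the 3 differences between times (13, 0 and 4 lower at an unadjusted p under 0.05 for 24 minus 12, 48 minus 24 and 48 minus 12 h), to 3 and 1 for vehicle at 24 and 48 h against 12 h, and to 14 for pioglitazone at 48 against 12 h. Under it the median of the members turned to 0.39 for 48 minus 24 h and to 0.0915 for vehicle at 24 against 12 h, beside 0.46 and 0.54 for all genes, and all genes called lower and higher numbered 4 and 19, 336 and 112, and 213 and 341 at 12, 24 and 48 h. Median scaling over the tested genes alone, chosen after seeing the data, gave 8, 23 and 24. POLA1, POLE2, FEN1, GINS2, GINS4, CHAF1A and ASF1B kept their 48 h call in every alternative in which they were tested.

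At 12 h (10 called), testing all kept probes gave 6, array weights 16, the replicate block 7, and leaving out 1 array 4 to 6. Leaving out 1 array gave 19 to 23 at 24 h and 22 to 26 at 48 h. For 24 minus 12 h (1 called), no background correction, an offset of 50, the authors' values, detection on all 18 arrays and the replicate block each gave 2, only the groups compared 5, background class as a block 6, array weights 11, and leaving out 1 array 1 to 2, as it did for 48 minus 24 h. For 48 minus 12 h (8 called), only the groups compared gave 5 and leaving out 1 array 5 to 11. For vehicle at 24 against 12 h (21 called), background class as a block gave 3 and leaving out 1 array 15 to 20; at 48 against 12 h (8), array weights gave 15 and leaving out 1 array 6 to 7; for pioglitazone at 48 against 12 h (24), leaving out 1 array gave 22 to 24. With the mean of all kept probes ORC6 stood at -0.45 at 48 h (adjusted p = 0.00106). Same-numbered arrays of a time did not deviate together (correlations -0.26 to 0.09, 0 of 9 over 0.1), so the numbers were not taken as pairs, and the replicate block moved no other count by over 1.5 times. The block of background class rests on 1 array, the 48 h pioglitazone array of replicate 3, because class differed within no other group. Beyond the alternatives named, the cause of these shifts was not tested.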
